A study of Mus musculus with 2 samples.

Results

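The genes described here are the ubiquitin-conjugating E2 enzymes of 3T3-L1 cells, taken as every row of the deposited count tables whose gene symbol begins with Ube2. The rule found 37 of 23282 rows, each symbol once, and 31 of the 37 had the summed count of at least 40 over both libraries that was asked of a measured gene. The samples were 2 cultures of 3T3-L1, a mouse fibroblast line that can be differentiated into fat cells and that the labels name as adipocytes. One culture was treated with an siRNA against Pink1, which encodes a kinase on mitochondria that flags damaged ones for breakdown. The other was treated with a control siRNA. Each culture gave 1 library of sequence tags from transcript 3′ ends, and the study's title concerns bone loss with age. The time after transfection and the stage of differentiation were not stated.

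An E2 enzyme carries activated ubiquitin on a cysteine, receives it from an E1 enzyme and passes it on to a substrate with the help of an E3 ligase. The choice of E2 sets much of what is built, whether a single ubiquitin, a chain that sends a protein to the proteasome or a chain used in signalling and DNA repair. A few E2 enzymes carry ubiquitin relatives such as NEDD8 or ISG15 instead. Pink1 acts on this machinery by phosphorylating ubiquitin and the E3 ligase Parkin, which accepts ubiquitin from several E2 enzymes in human cells.

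The Pink1 siRNA library held 14214768 counts and the control siRNA library 13803174. Pink1 had 351 counts in the Pink1 siRNA library and 511 in the control siRNA library. This is a ratio of 0.687 with a 95% counting interval of 0.598 to 0.788, in the direction of the labels and short of the 2-fold rule used below. A wider interval, which scales both counts down by the mean excess spread of genes in the same twentieth of mean level and is called the widened interval below, ran from 0.445 to 1.05 and took in 1. Defining fat cell markers were present, with Fabp4 at 1196 CPM, the count scaled to library size, in the Pink1 siRNA library and 1048 CPM in the control siRNA library, while Lep was at 0 counts in both. Most fibroblast and preadipocyte markers were present too, with Dlk1 at 9329 CPM in the Pink1 siRNA library and 8326 CPM in the control siRNA library. Cd34 of the same list was too low to measure, with 17 counts in the Pink1 siRNA library and 4 in the control siRNA library. Of the macrophage markers, which summed to 225 counts in the Pink1 siRNA library and 285 in the control siRNA library, Adgre1 was at 0 in both. Endothelial markers summed to 7 counts in the Pink1 siRNA library and 13 in the control siRNA library, with Cdh5, Kdr and Tek at 0. The median log2 ratio was 0.11 for the 8 measured fat cell markers and 0.13 for the 7 measured fibroblast markers, and 0 genes of the marker lists passed the rule of size. The fat cell marker Plin1 had 167 counts in the Pink1 siRNA library and 275 in the control siRNA library, a ratio of 0.607 (counting interval 0.498 to 0.739, widened 0.343 to 1.05). Its log2 ratio of -0.72 lay below the 5th percentile of its level class, -0.66. Widened intervals lay above 1 for 3 of the 7 fibroblast markers, Thy1 (ratio 1.47), Col1a1 (1.15) and Dlk1 (1.12). This was so for 2.09% of measured rows of all levels, and for 101 of the 2754 rows with a summed count of at least 2000. The log2 ratios of Col1a1 (0.20) and Dlk1 (0.16) lay between the 5th and 95th percentiles of their level class, -0.25 and 0.42. That of Thy1, 0.55, lay above the 95th percentile of its class, 0.39. The part of cell composition in the E2 values was not tested. With 1 library per group no difference below has a replicate check, no p-value was computed, and every counting interval covers counting error only. In bulk RNA, fewer cells of a type and less RNA per cell cannot be told apart.

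Summed over the family, the E2 genes had nearly equal counts in both libraries. All 37 rows together held 35009 counts (2499 CPM) in the Pink1 siRNA library and 35013 counts (2500 CPM) in the control siRNA library. As a share of all counts, this was 0.246% in the Pink1 siRNA library (exact binomial 95% interval 0.244% to 0.249%) and 0.254% in the control siRNA library (0.251% to 0.256%). Those intervals do not overlap, while the scaled sums were within 1 CPM of each other, so the comparison of sums turns on the scaling. Tags from 3′ ends are not multiplied by transcript length, so CPM can be set side by side between genes without a length correction. Reads that could belong to another gene, described near the end, still limit such comparisons.

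The measured members spanned a 140-fold range of levels in the Pink1 siRNA library and a 99.6-fold range in the control siRNA library. The same 5 genes led in both libraries and held 45.3% of the family's counts in the Pink1 siRNA library and 46.9% in the control siRNA library. Ube2k, which builds degradative chains, had 245 CPM in the Pink1 siRNA library and 284 CPM in the control siRNA library. Ube2d3, a broadly used E2 that works with many E3 ligases, had 259 CPM in the Pink1 siRNA library and 247 CPM in the control siRNA library, so these genes traded the first and second rank. Ube2r2, Ube2h and Ube2l3 followed in both. At the low end, Ube2l6 and Ube2cbp were the members under 4 CPM in both libraries, and Ube2t was under 4 CPM in the Pink1 siRNA library only.

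**Figure D1:**
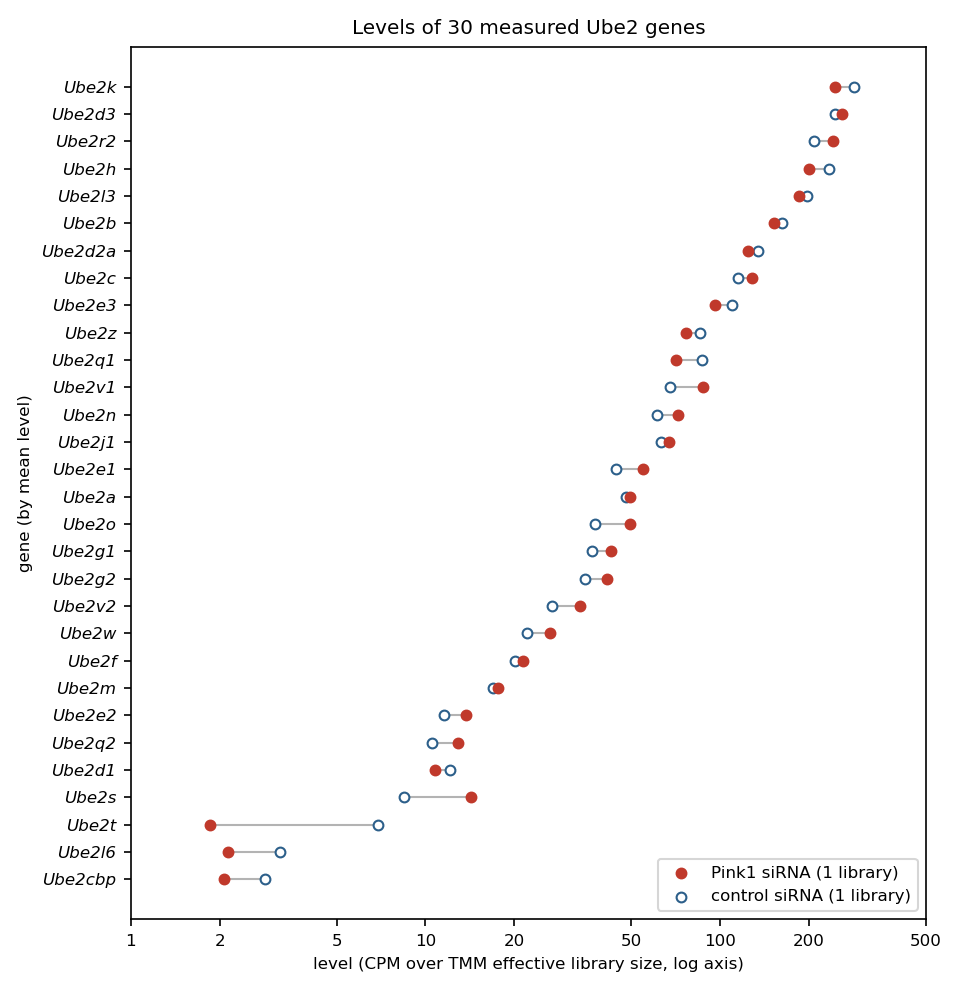
Level of 30 of the 31 measured Ube2 genes, in CPM on a log axis, with a filled red point for the Pink1 siRNA library and an open blue point for the control siRNA library (1 library each), ordered by mean level. The points of most genes lie close together, and the widest gap is that of Ube2t, at 1.86 CPM in the Pink1 siRNA library and 6.92 CPM in the control siRNA library.

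By the rule of size, 1 of the 31 measured members was lower and 0 were higher in the Pink1 siRNA library. The rule asked for a 2-fold ratio either way, computed after adding 0.5 to the scaled counts, and a counting interval that left out 1. Across all 11660 measured rows it called 2.39% lower and 1.63% higher, so 1 member in 31 is near the background. The member was Ube2t. The ratio of 29 of the 31 lay within 1.5-fold of 1, against 86.9% of all measured rows, and the exceptions were Ube2t and Ube2s. The share of rows within 1.5-fold was 98.8% at a summed count of at least 2000 and 83.2% among the other measured rows. With the fold lowered to 1.5, Ube2s was called higher, as were 5.43% of all measured rows, and Ube2t remained the 1 member called lower, as were 6.64% of all rows.

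Ube2t, Ube2c and Ube2s are E2 genes tied to cell division and chromosome maintenance, and their values went different ways. Ube2r2, grouped by role with Ube2c and Ube2s, had a ratio of 1.16 and is described further below. Ube2t loads ubiquitin onto the Fancd2 and Fanci proteins with the ligase Fancl, a step in the repair of DNA crosslinks. It had 26 counts (1.86 CPM) in the Pink1 siRNA library and 97 counts (6.92 CPM) in the control siRNA library. The ratio was 0.268, or 3.73-fold lower, with a counting interval of 0.167 to 0.417. The widened interval ran from 0.0587 to 0.896 and also lay below 1. Across all measured rows 2.01% had such a widened interval below 1 and 2.09% above 1. The log2 ratio of Ube2t was -1.88, against -1.21 at the 5th and 1.09 at the 95th percentile of its level class of 583 rows.

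Ube2c starts chains on substrates of the anaphase-promoting complex, the ligase that ends mitosis. It had 1794 counts (128 CPM) in the Pink1 siRNA library and 1617 counts (115 CPM) in the control siRNA library. Its ratio was 1.11 (counting interval 1.04 to 1.19, widened 0.808 to 1.53). Ube2s, which lengthens the chains that Ube2c begins, had 200 counts (14.3 CPM) in the Pink1 siRNA library and 118 counts (8.42 CPM) in the control siRNA library. Its ratio was 1.70 (counting interval 1.34 to 2.15), short of 2-fold, and the widened interval of 0.882 to 3.37 included 1. Its log2 ratio of 0.76 lay above the 95th percentile of its level class, 0.69. Both Ube2c and Ube2s thus had ratios above 1 and Ube2t a ratio below 1, and the counting interval of Ube2t overlapped neither of the others, while its widened interval overlapped both. For every 100 Ube2c counts there were 11.1 Ube2s counts in the Pink1 siRNA library and 7.30 in the control siRNA library.

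The promoters of these genes are shown because cell cycle genes are often controlled by short elements near their start. They are RefSeq windows on GRCm38.p6, the assembly behind mm10, from 250 bases before to 50 bases after the annotated start and written 5′ to 3′ on the gene's strand. Ube2t lies at chr1:134962315-134962614 on the plus strand, Ube2c at chr2:164769679-164769978 on the plus strand and Ube2s at chr7:4812291-4812590 on the minus strand. Such windows were found for 30 of the 37 members. Capitals mark matches on either strand to the CCAAT box (CCAAT), to the cell cycle genes homology region (TTTGAA) and to a variant of it (TTCGAA, which reads the same on both strands).
Ube2t: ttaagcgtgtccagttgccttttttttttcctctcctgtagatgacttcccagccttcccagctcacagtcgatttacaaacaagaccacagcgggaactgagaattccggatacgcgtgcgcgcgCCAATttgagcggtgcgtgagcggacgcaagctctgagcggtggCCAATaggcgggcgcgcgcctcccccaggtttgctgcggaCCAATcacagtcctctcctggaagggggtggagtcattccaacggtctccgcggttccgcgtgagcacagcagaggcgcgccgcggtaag
Ube2c: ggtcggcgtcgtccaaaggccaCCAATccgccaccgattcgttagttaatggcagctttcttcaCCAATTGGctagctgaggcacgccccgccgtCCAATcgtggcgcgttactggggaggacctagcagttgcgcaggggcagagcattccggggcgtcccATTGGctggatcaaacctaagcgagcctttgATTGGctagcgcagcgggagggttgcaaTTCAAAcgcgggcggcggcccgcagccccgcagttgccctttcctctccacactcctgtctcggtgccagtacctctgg
Ube2s: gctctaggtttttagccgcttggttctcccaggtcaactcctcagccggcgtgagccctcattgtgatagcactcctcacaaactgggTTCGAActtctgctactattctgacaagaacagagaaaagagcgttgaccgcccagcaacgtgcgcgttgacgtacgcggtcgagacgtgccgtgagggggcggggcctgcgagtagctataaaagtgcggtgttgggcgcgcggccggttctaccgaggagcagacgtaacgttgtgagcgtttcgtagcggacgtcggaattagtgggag
Ube2t held 3 CCAAT matches, with first bases at -124, -80 and -40 from the start, and no match to either form of the homology region. Ube2c held 6 CCAAT matches, a pair of which overlap on opposite strands in the run CCAATTGG, and 1 TTTGAA match on the opposite strand at -29. Ube2s held no CCAAT match and 1 TTCGAA match at -162. Among 32851 windows of the same length, 37.4% held CCAAT at least once and 3.37% held it 3 times or more, 17.9% held TTTGAA and 1.56% held TTCGAA. The matches describe letters in these windows, and no binding was measured.

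Genes that work beside the mitotic E2 enzymes were measured in both libraries. Of 17 genes of the anaphase-promoting complex and its activators, 7 had ratios above 1 and 10 below, 0 passed the rule, and the median log2 ratio was -0.06. The subunit Anapc11, which binds Ube2c, had 2984 counts in the Pink1 siRNA library and 2985 in the control siRNA library. The activator Cdc20 had 1178 counts in the Pink1 siRNA library and 1446 in the control siRNA library, a ratio of 0.815. Among 14 substrates and mitotic kinases of the pathway, 12 had ratios below 1 and 2 above, against 48.9% of all measured rows below 1. Their median log2 ratio was -0.21, against 0.00 over all measured rows. They summed to 498 CPM in the Pink1 siRNA library and 624 CPM in the control siRNA library, and 0 passed the rule. Widened intervals lay below 1 for 3 of them, the checkpoint genes Mad2l1 (ratio 0.594) and Bub1b (0.672) and the securin gene Pttg1 (0.663). Across all measured rows, 2.01% had a widened interval below 1. Of these 14, the kinase gene Nek2 had the highest ratio, 1.92, from 71 counts in the Pink1 siRNA library and 37 in the control siRNA library. Ube2c and Ube2s therefore lay on the other side of 1 from most genes of this list, and the part of cell cycle activity in any E2 value was not tested.

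The Fanconi anaemia list, the pathway in which Ube2t acts, had a median log2 ratio of -0.25 over 14 genes, and 0 passed the rule. Ratios were below 1 for 11 of the 14 and above 1 for 3, against 48.9% of all measured rows below 1. Fancl, the ligase partner of Ube2t, had 406 counts in the Pink1 siRNA library and 419 in the control siRNA library. Its substrate Fancd2 had 44 counts in the Pink1 siRNA library and 56 in the control siRNA library, and Fanci had 111 in the Pink1 siRNA library and 112 in the control siRNA library. The lowest log2 ratio of the list was -0.56, for the DNA translocase gene Fancm, and the highest 0.56, for Fancf. Ube2t itself, at -1.88, lay below every gene of that list.

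Of the 7 E2 genes of DNA damage tolerance, repair and signalling chains, Ube2t among them, 5 had ratios above 1 and 2 below, against 51.1% of all measured rows above 1. Ube2n builds signalling chains only when paired with Ube2v1 or Ube2v2, which resemble E2 enzymes but lack the catalytic cysteine. Ube2n had 1012 counts in the Pink1 siRNA library and 855 in the control siRNA library (ratio 1.18, counting interval 1.08 to 1.30). Ube2v1 had 1229 counts in the Pink1 siRNA library and 948 in the control siRNA library (1.30, 1.19 to 1.41). Ube2v2 had 470 counts in the Pink1 siRNA library and 376 in the control siRNA library (1.25, 1.09 to 1.44). Both possible pairs thus had ratios above 1 for each partner, and all 3 widened intervals included 1. Ube2w, which attaches ubiquitin to protein N termini, had 370 counts in the Pink1 siRNA library and 309 in the control siRNA library (1.20, 1.03 to 1.40). The RAD6 homologues Ube2a and Ube2b, which act with the ligases Rad18 and Rnf20, had ratios on either side of 1. Ube2a had 694 counts in the Pink1 siRNA library and 673 in the control siRNA library, and Ube2b had 2127 in the Pink1 siRNA library and 2278 in the control siRNA library. The 9 damage tolerance partners of these enzymes had a median log2 ratio of -0.07 with 3 ratios above 1, 6 below and 0 past the rule.

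Of the versatile D and E families, which serve a wide range of ligases, 3 of the 6 measured members had ratios above 1 and 3 below, and 0 passed the rule. Ube2d3, the most abundant, had 3628 counts in the Pink1 siRNA library and 3453 in the control siRNA library (ratio 1.05, counting interval 1.003 to 1.10). Ube2d2a had 1740 counts in the Pink1 siRNA library and 1891 in the control siRNA library (0.920). Ube2d1 was more than 10 times scarcer than either, with 151 counts in the Pink1 siRNA library and 170 in the control siRNA library. Within the E family, Ube2e1 had a ratio of 1.24 from 766 counts in the Pink1 siRNA library and 619 in the control siRNA library, while Ube2e3 had 0.874 from 1345 in the Pink1 siRNA library and 1539 in the control siRNA library. Their counting intervals, 1.11 to 1.38 and 0.812 to 0.941, lay on opposite sides of 1, while the widened intervals, 0.866 to 1.77 for Ube2e1 and 0.655 to 1.16 for Ube2e3, both included 1. Ube2e2, the scarcest of the 3, had 192 counts in the Pink1 siRNA library and 162 in the control siRNA library. Ube2l3, which serves HECT and RBR ligases including Parkin in human cells, had 2587 counts in the Pink1 siRNA library and 2770 in the control siRNA library, a ratio of 0.934 (0.885 to 0.986).

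The 4 measured E2 genes of degradation at the endoplasmic reticulum and of degradative chains had ratios from 0.863 to 1.20, and 0 passed the rule. Ube2j1, anchored in the reticulum membrane, had 939 counts in the Pink1 siRNA library and 881 in the control siRNA library (ratio 1.07). Ube2g2, which works with ligases of the reticulum membrane, had 581 counts in the Pink1 siRNA library and 486 in the control siRNA library (1.20, counting interval 1.06 to 1.35). Ube2g1, its relative, had 595 counts in the Pink1 siRNA library and 515 in the control siRNA library (1.16). By contrast Ube2k had 3437 counts in the Pink1 siRNA library and 3982 in the control siRNA library, a ratio of 0.863 (0.824 to 0.904). The 14 measured reticulum partners had a median log2 ratio of 0.02 with 7 ratios on each side of 1 and 0 past the rule, and Rnf5, a membrane ligase gene, had the highest at 0.61. Ube2r2, the paralogue of Cdc34 that serves cullin ligases, had 3389 counts in the Pink1 siRNA library and 2925 in the control siRNA library (1.16, 1.10 to 1.22). Genes of the unfolded protein and integrated stress responses had a median log2 ratio of -0.08 over 10 measured genes, 0 of them past the rule.

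The NEDD8 enzymes had ratios within 1.1-fold of 1. Ube2m, which carries NEDD8 to cullins, had 246 counts in the Pink1 siRNA library and 238 in the control siRNA library (ratio 1.03). Ube2f, which does the same for Cul5, had 299 counts in the Pink1 siRNA library and 282 in the control siRNA library (1.06). Both counting intervals included 1. Ube2l6, the interferon-induced E2 of ISG15, had 30 counts in the Pink1 siRNA library and 45 in the control siRNA library, a ratio of 0.667 whose counting interval of 0.406 to 1.08 included 1. At that depth a difference of this size was not detectable. In the list of its ISG15 and interferon partners, 8 of 13 genes had ratios below 1 and 5 above, against 48.9% of all measured rows below 1. The median log2 ratio was -0.23. The antiviral gene Ifit3 was the 1 of these 13 lower by the rule, as were 2.39% of all measured rows. It had 86 counts in the Pink1 siRNA library and 233 in the control siRNA library. In the other direction, Irf7 had the highest ratio of the list, 1.76 (counting interval 1.17 to 2.70). Its counts were 67 in the Pink1 siRNA library and 38 in the control siRNA library. Isg15 itself had 351 counts in the Pink1 siRNA library and 336 in the control siRNA library, and Uba7, the E1 enzyme that loads Ube2l6, had 516 in the Pink1 siRNA library and 438 in the control siRNA library. The 12 SUMO ligases and proteases had a median log2 ratio of -0.04, with 0 past the rule and Ranbp2, a nuclear pore SUMO ligase gene, the lowest at -0.61. Cullins and neddylation factors had a median of 0.08 over 15 measured genes and 0 past the rule.

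Large and atypical members were split. Ube2o, a large enzyme that works as both E2 and E3, had 691 counts in the Pink1 siRNA library and 527 in the control siRNA library (ratio 1.31, counting interval 1.17 to 1.47). Its log2 ratio of 0.39 sat at the 95th percentile of its level class. Ube2q1 had 991 counts in the Pink1 siRNA library and 1215 in the control siRNA library (0.816, 0.749 to 0.888), whereas its relative Ube2q2 had 180 in the Pink1 siRNA library and 147 in the control siRNA library (1.22, 0.979 to 1.53). Ube2h, the E2 of the CTLH ligase complex, had 2812 counts in the Pink1 siRNA library and 3277 in the control siRNA library (0.858). Ube2z, which takes ubiquitin from the E1 enzyme Uba6, had 1071 counts in the Pink1 siRNA library and 1200 in the control siRNA library (0.893). Uba6 had 283 counts in the Pink1 siRNA library and 365 in the control siRNA library (0.775). Ube2cbp matches the symbol but is listed by RefSeq under the synonym Ube3d, an E3 ligase gene, and it had 29 counts in the Pink1 siRNA library and 40 in the control siRNA library.

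The other 6 rows were too low to measure. Ube2d2b had 3 counts in the Pink1 siRNA library and 5 in the control siRNA library. Ube2u had 5 in the Pink1 siRNA library and 0 in the control siRNA library, and Ube2j2, a relative of Ube2j1, had 0 in the Pink1 siRNA library and 2 in the control siRNA library. Ube2ql1, Ube2dnl1 and Ube2dnl2 were at 0 in both. By counting error alone, a gene at 0 could have a level of up to 0.214 CPM, which is 3 counts of a library. Whether the low count of Ube2j2 comes from low expression or from the way reads were assigned to genes was not tested.

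**Figure D2:**
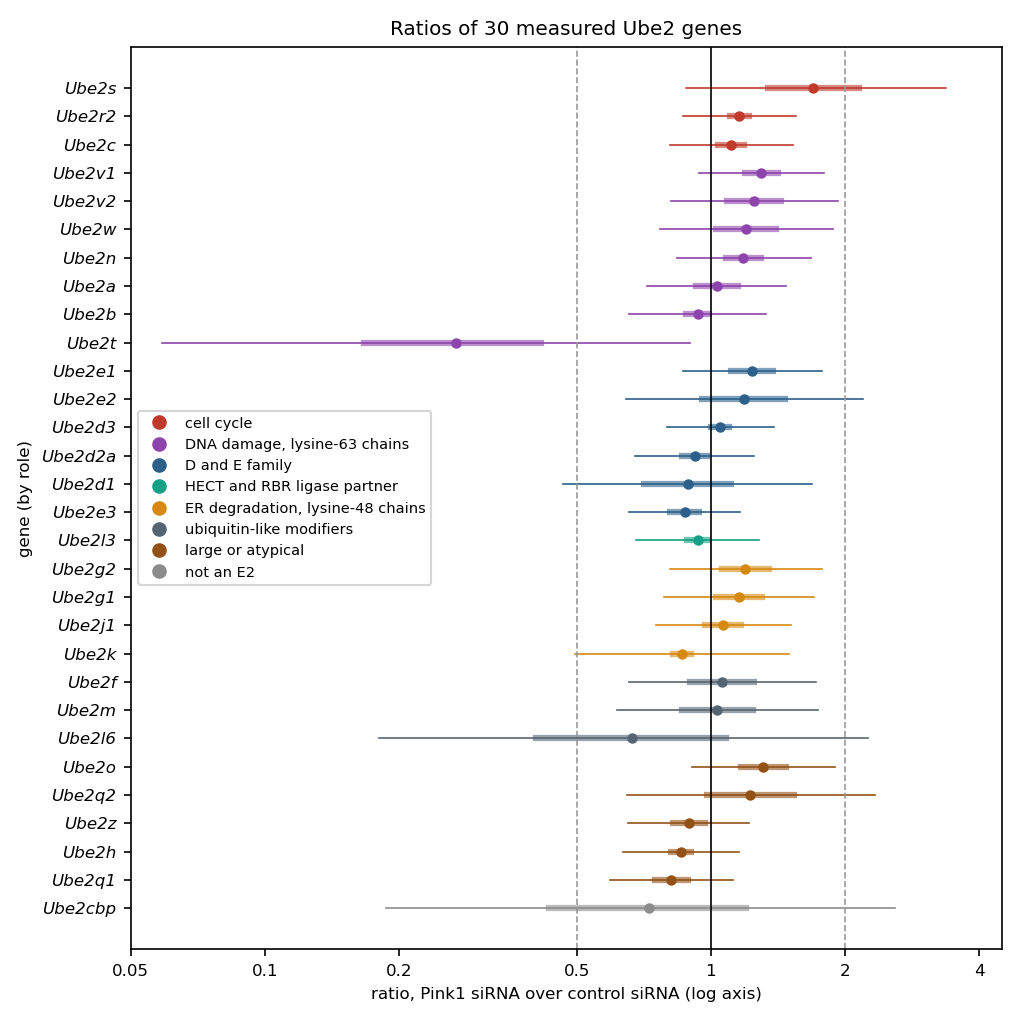
Ratio of Pink1 siRNA over control siRNA for 30 of the 31 measured Ube2 genes on a log axis, grouped by role. Thick bars are 95% counting intervals, thin bars the widened intervals, and dashed lines mark 2-fold. Ube2t is the member whose widened interval, 0.0587 to 0.896, leaves out 1.

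Against all measured rows, the family differed little in its middle and in its spread. The median log2 ratio of the 31 members was 0.07 (interquartile range -0.17 to 0.25), against 0.00 (-0.21 to 0.21) over all measured rows. Ratios above 1 were found for 19 of the 31, or 61.3%, against 51.1% of all rows, and ratios below 1 for 12, against 48.9% of all rows. Counting intervals lay above 1 for 12 members (38.7%, against 26.2% of all rows) and below 1 for 9 (29.0%, against 24.9%). Such intervals narrow with depth, and 13 of the 31 members had a summed count of at least 2000. Among all rows that abundant, 40.7% lay above 1 and 27.8% below. Among the other measured rows the shares were 21.8% and 24.0%. Widened intervals lay above 1 for 0 members and below 1 for 1, against 2.09% and 2.01% of all rows. Outside the central 90% of their level class, which leaves out 10% of rows by construction, were 3 members, namely Ube2t, Ube2s and Ube2o.

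Abundant and scarcer members were also counted apart. Of the 13 members with a summed count of at least 2000, 5 had ratios above 1 and 8 below, with a median log2 ratio of -0.10. Among all rows that abundant, 56.6% had ratios above 1 and the median was 0.03. Of the 18 members with lower counts, 14 had ratios above 1 and 4 below, with a median of 0.23, whereas 49.4% of all rows in that class were above 1 and their median was -0.01. The class limit was chosen with these values known, so the contrast is a description. Summed over members, the abundant class had 1965 CPM in the Pink1 siRNA library and 2032 CPM in the control siRNA library, and the other had 533 CPM in the Pink1 siRNA library and 467 CPM in the control siRNA library.

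**Figure D3:**
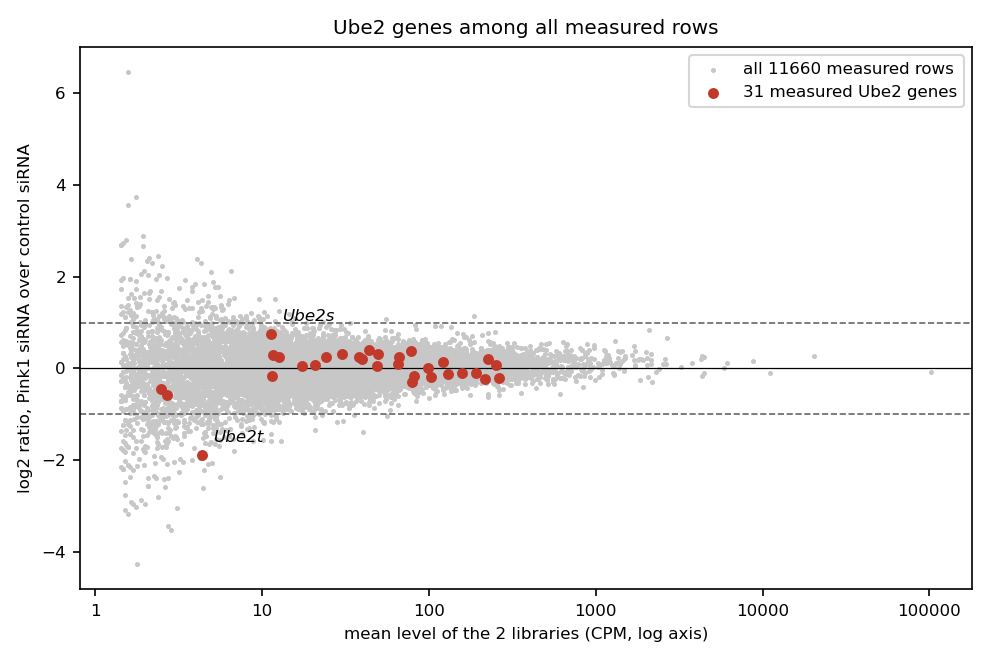
Log2 ratio of Pink1 siRNA over control siRNA against mean level (CPM, log axis) for all 11660 measured rows in grey and the 31 measured Ube2 genes in red, with dashed lines at 2-fold. Ube2t, at -1.88, lies outside the dashed lines and Ube2s, at 0.76, inside them, and the other members sit within the grey cloud between those values.

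Upstream of the E2 enzymes, ratios were mostly slightly above 1 and none passed the rule. Of 9 measured E1 genes, 7 had ratios above 1, against 51.1% of all measured rows, with a median log2 ratio of 0.12. Uba1, the main ubiquitin E1, had 4881 counts in the Pink1 siRNA library and 3991 in the control siRNA library (ratio 1.22, widened interval 0.742 to 2.03). Of 11 measured genes of ubiquitin and its relatives, 10 had ratios above 1, with a median of 0.12. Rps27a, a ribosomal fusion of ubiquitin, had 13174 in the Pink1 siRNA library and 10029 in the control siRNA library (1.31). Ubb, a polyubiquitin gene, was listed at 1 count in the Pink1 siRNA library and 5 in the control siRNA library, and the assignment of its reads was not tested. E2 enzymes and E2-like proteins with other symbols had 5 ratios above 1 and 3 below, with a median of 0.07. Uevld, an E2-like protein without the catalytic cysteine, had the lowest of these, 0.549 from 73 counts in the Pink1 siRNA library and 133 in the control siRNA library, and its widened interval of 0.244 to 1.18 included 1.

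In the Pink1 and Parkin list, 15 of 17 rows were measured, with a median log2 ratio of 0.09, 10 ratios above 1, 5 below and 0 past the rule. Arih1, an RBR ligase gene whose protein uses Ube2l3, had 1395 counts in the Pink1 siRNA library and 1499 in the control siRNA library. Park2, the Parkin gene, had 18 counts in the Pink1 siRNA library and 0 in the control siRNA library, under the limit for a measured gene. The adaptor gene Optn had the lowest log2 ratio of the list, -0.98, from 64 counts in the Pink1 siRNA library and 127 in the control siRNA library.

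**Figure D4:**
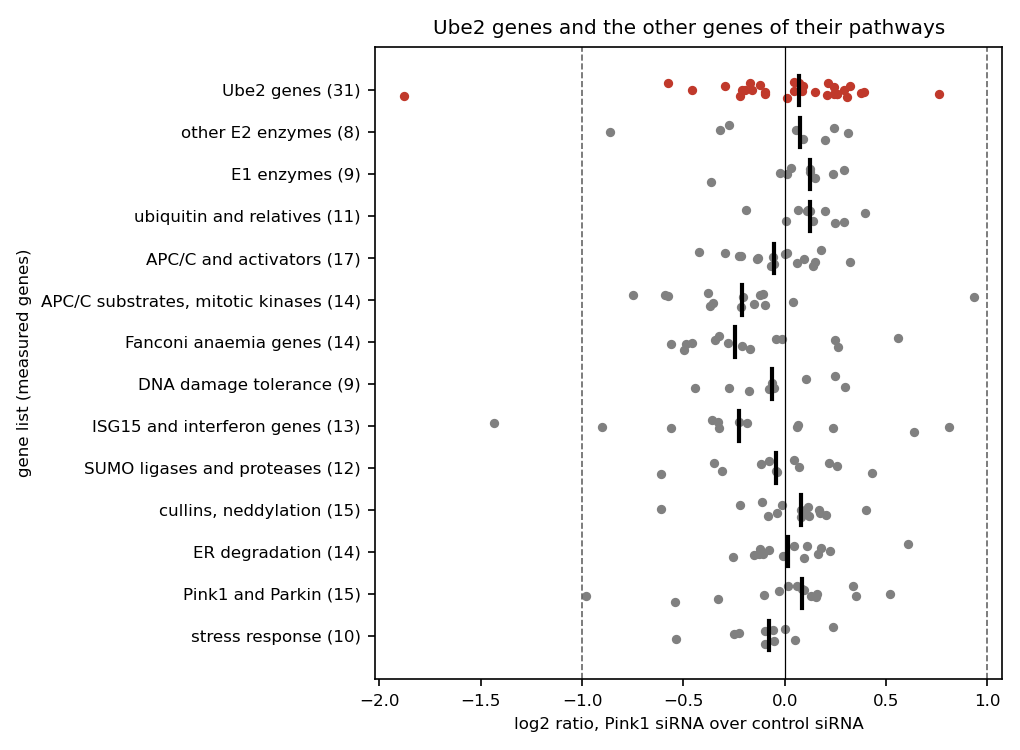
Log2 ratio of Pink1 siRNA over control siRNA for each measured gene of the Ube2 family (red) and of 13 related gene lists (grey), with a black bar at each list's median, dashed lines at 2-fold and the number of measured genes in brackets. Medians run from -0.25 for the Fanconi anaemia genes to 0.12 for the E1 genes and the ubiquitin genes, with the Ube2 genes at 0.07.

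Some member counts are uncertain because reads could belong to another gene, and the sources used here do not say whether counting used strand. In GENCODE M21 or RefSeq, 6 members overlap a gene with at least 40 summed counts: Ube2a, Ube2b, Ube2d2b, Ube2e1, Ube2l3 and Ube2s. For Ube2s the overlap is with the last bases of Rpl28 on the other strand, exists in GENCODE and not in RefSeq, and spans 521 bases. Rpl28 had 7750 counts in the Pink1 siRNA library and 5341 in the control siRNA library, a ratio of 1.45 beside the 1.70 of Ube2s, and its part in the Ube2s counts was not tested. Ube2t overlaps no annotated gene. Runs of 50 bases in the last 300 bases of coding transcripts were also compared, leaving out genes that overlap the member. Of the 37 members, 14 shared at least 1 such run with another gene that does not overlap them. Among them were Ube2h (25.3% of such runs), Ube2d2a (21.4%), Ube2v1 (19.4%) and Ube2j2 (18.3%). Ube2t and Ube2s shared none and Ube2c 2.99%.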

How the data were processed

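RNA of 2 cultures was profiled from 3′ ends with a QuantSeq kit, per the labels' protocols. The build was mm10 and the tools were Bowtie2, bedtools and bcl2fastq (2.20.0.422), per the submitters' processing notes. Neither these nor the labels state the annotation, the use of strand or how multiply mapped reads were handled. For each library the authors deposited 1 table of raw counts, with a whole number of reads for every gene symbol. No molecular identifiers are mentioned, so reads copied from 1 molecule cannot be separated.

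The 23282 rows matched between the tables; 79 of them shared 35 symbols and were counted but not named. Counts were scaled by TMM effective library sizes (edgeR 4.0.16, R 4.3.3), 14006902 for the Pink1 siRNA library and 14008016 for the control siRNA library. Rn45s, at 9.83% of the Pink1 siRNA counts and 10.8% of the control siRNA counts, was kept. Ratios carry exact conditional binomial (Clopper-Pearson) 95% intervals (SciPy 1.17.1). Widened intervals divide both counts by the mean squared deviation over its binomial variance in the gene's twentieth of mean level (5.58 to 128). The factor of 128 served the whole top class, which held both Uba1 and Dlk1, at 285 and 8326 CPM in the control siRNA library. Whether 1 factor suits genes so far apart in level was not tested. Printed ratios are of scaled counts, and log2 ratios and calls add 0.5. The ratios and counting intervals were tested on simulated counts that held counting error only. The widened intervals were not tested in this way.

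Every Ube2 row is counted, and 1 measured member and some list genes are not reported here by name. From the related lists, genes were named among those with the largest log2 ratios, and Bub1b, marker genes and direct partners of a member (Anapc11, Cdc20, Fancl, Fancd2, Fanci, Isg15, Uba7, Ubb, Arih1, Park2) were named after their values were seen. Members, lists and rules were chosen with earlier results of these data known. Alternatives were DESeq2 (1.42.0) and other scalings, filters, prior counts, folds and intervals.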

Additional observations from a re-analysis of the deposited data

How the results depend on the processing

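The call of Ube2t as lower held under every scaling and with the widened interval. The largest shift between scalings was -0.04 in log2, with total counts, which is small beside the -1.88 of Ube2t. Leaving out the filter, lowering the fold to 1.5 or leaving out the interval only loosens the rule. Those settings could not have removed the call. With a summed count of at least 200 asked for, Ube2t is not tested and the number of members lower is 0. At 1.5-fold, 1 member, Ube2s, is higher. Over all measured rows, the main rule gave 190 higher and 279 lower, and the alternatives gave 597 and 853 without the filter, 26 and 40 at a summed count of 200, 633 and 774 at 1.5-fold, and 48 and 81 with the widened interval. Genes of the related lists past the rule were 0 higher and 1 lower (Ifit3), against 3 and 3 without the filter and 2 lower with total counts. The share of counts in Ube2 rows was 0.273% in the Pink1 siRNA library and 0.284% in the control siRNA library without Rn45s, and 0.250% in each over effective library sizes. The median log2 ratio of the members ran from 0.03 with total counts to 0.09 at a summed count of 200. Of the log2 ratios of the 31 measured members, 1 changed sign between scalings, that of the member not named here. The 30 others kept their sign. Filters and prior counts could not have changed a sign. No paired analysis was possible because each group has 1 library, which also leaves no replicate to leave out. Depth limits what can be said of Ube2l6, Ube2cbp and the 6 rows under 40 counts. It also limits Ube2t, the 1 member called, which had 26 counts in the Pink1 siRNA library. For Ube2j2 the assignment of reads to the gene was not tested.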
